A study of Mus musculus with 8 samples.

Results

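The genes encoding the proteins of the cytosolic ribosome were examined in total RNA and in RNA bound to Argonaute (Ago) proteins while mouse embryonic stem (ES) cells became neural. All probes for genes whose array name begins with Rpl or Rps and a digit were taken, except the Rps6k kinases, which gave 96 gene names and 193 probes of the 36163 gene names and 55681 probes on the array. These names held 43 large subunit genes and 29 small subunit genes, which are 72 of 73 listed components of the ribosome (Rps23 was not analysed here). The other names were 8 paralogs of ribosomal protein genes, 15 pseudogenes and Rps19bp1, which encodes a binding partner of Rps19 and only shares the name.

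The E14Tg2A ES cell line (129/Ola strain) was used at every stage. Cells in medium with leukemia inhibitory factor were ES cells at 0 days in vitro (DIV), and after transfer to a chemically defined minimal medium they were epiblast-like aggregates (ELA) at 2 DIV, neural progenitor cells (NPC) at 6 DIV and neural precursors at 10 DIV, called NPC/Neu. Total RNA and Ago–RNA were each measured on 1 array per stage. Ago–RNA is the RNA recovered with a pan-Ago antibody from cytoplasmic complexes, and each array held RNA pooled from 3 experiments. With 1 array per condition no difference has a replicate or a test, and all values come from 1 cell line.

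Ribosomal proteins are assembled on ribosomal RNA into a large subunit, where peptide bonds are made, and a small subunit, where mRNA is decoded. Their mRNAs are short and among the most abundant in growing cells, and many begin with a run of pyrimidines at which their translation is controlled together. Ago proteins carry miRNAs to mRNAs that are then repressed. The ratio of Ago–RNA to total RNA is called Ago enrichment (E) and is given on the log2 scale, so that E = 0 is equal signal in both, and ΔE is its change between consecutive stages. A value of 1 or more in size (2-fold) was counted as past the threshold. As a measure of noise within arrays, single spots of 399 probes printed in 10 spots gave an SD of 0.21 to 0.25 for E, 0.22 to 0.23 for a change in 1 RNA fraction and 0.31 to 0.33 for ΔE.

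The probes that read these mRNAs are 60 bases long, and several of those on which the results rest are shown because their sequence sets what they can tell apart. Of the 166 probes for the 72 listed genes, 77 lay within coding sequence and 28 within a 3′ UTR. Allowing up to 3 mismatches, 143 of them matched at least 1 other place in the mouse genome (median 4, up to 41 other places). The family is known for its many processed pseudogenes. Coding probes with extreme Ago enrichments are given below 5′ to 3′ on the mRNA strand, with mm9 positions that include an intron where they are longer than the probe. The Rpl3 probe differs at some bases from the Rpl3 coding sequence shown after it.

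Rps15a, chr7:125253453-125253512: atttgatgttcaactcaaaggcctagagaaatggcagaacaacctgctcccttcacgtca
Rps18, chr17:34092060-34092119: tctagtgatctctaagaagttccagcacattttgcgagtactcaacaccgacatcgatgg
Rps13, chr7:123475080-123475934: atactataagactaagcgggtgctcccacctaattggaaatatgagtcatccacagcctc
Rpl26, chr11:68715893-68716688: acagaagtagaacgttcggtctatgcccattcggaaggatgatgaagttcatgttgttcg
Rpl23a, chr11:77995006-77995065: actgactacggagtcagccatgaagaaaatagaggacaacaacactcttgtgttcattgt
Rpl3, chr15:79908489-79908772: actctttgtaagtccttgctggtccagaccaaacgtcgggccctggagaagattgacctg

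For a pair of paralogs the coding probe is shown against the listed gene most like it. The coding probe of Rpl10l differs at 9 of 60 bases from the stretch of the Rpl10 coding sequence nearest to it (coding bases 418 to 477), and that of Rpl3l at 16 of 60 from Rpl3 (coding bases 1003 to 1062). Capitals mark the bases that differ.

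Rpl10l probe: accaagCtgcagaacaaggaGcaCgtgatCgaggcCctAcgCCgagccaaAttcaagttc
Rpl10: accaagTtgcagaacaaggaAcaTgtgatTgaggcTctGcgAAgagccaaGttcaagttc
Rpl3l probe: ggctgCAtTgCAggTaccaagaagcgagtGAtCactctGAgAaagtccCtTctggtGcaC
Rpl3: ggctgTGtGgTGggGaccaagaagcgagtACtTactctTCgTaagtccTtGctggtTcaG

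Stage markers were read in total RNA. Of 8 pluripotency genes 7 were lower in NPC/Neu than in ES cells (Sox2 was at 13.75 and 13.87), 4 of 5 epiblast genes were highest in ELA (Eomes was highest in NPC/Neu, at 11.33), and all 9 neural genes were higher in NPC/Neu than in ES cells. The pluripotency gene Pou5f1 (Oct4) read 15.21, 14.76, 7.98 and 8.31 (log2 signal in total RNA, in the order ES, ELA, NPC and NPC/Neu). The epiblast gene Fgf5 rose from 11.97 in ES cells to 14.78 in ELA, and the neuronal tubulin gene Tubb3 rose from 12.95 in ES cells to 17.01 in NPC/Neu. The share of spots well above background was 53.45 to 61.22% over the 8 arrays and no spot was saturated. The ES Ago–RNA array was brighter than the others before normalization, with an upper quartile of the mean signal of 3039 against 1060 to 1774 on the other 7 arrays.

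None of the 72 listed genes changed 2-fold in total RNA at any transition. Their log2 signals lay between 10.60 and 19.47 in ES cells (median 17.68), and the medians at the later stages were 17.62, 17.58 and 17.49. The median change was -0.01 at the ES–ELA transition, -0.05 at the ELA–NPC transition and -0.12 at the NPC–NPC/Neu transition, where 58 of the 72 genes were below 0. Among all genes tested, 4.10% fell and 3.91% rose 2-fold at the first transition, 8.80% fell and 9.47% rose at the second, and 3.89% fell and 5.32% rose at the last. Other genes of like signal (the range is given below with Ago enrichment) moved little too. In transition order, 11 of 946, 15 of 925 and 16 of 1018 fell 2-fold, and 1, 5 and 9 rose. Their median changes were -0.01, -0.04 and -0.09. The lack of 2-fold changes thus sets the listed genes apart from all genes, but little from genes of like signal. Over the 4 stages together, 62 of the 72 genes stayed within 0.5 log2 units, 8 moved by between 0.5 and 1, and 2 moved by more, Rpl21 (1.03) among them. In such bulk RNA, fewer cells of a type and less RNA per cell cannot be told apart. Scaling each array to its 75th percentile gave medians of -0.54 and -0.59 at the last 2 transitions in place of -0.05 and -0.12, when the median of all genes moved to -0.21 and -0.04, and 1 gene fell 2-fold at each. The 20 genes with probes that match no other place in the genome gave -0.21 and -0.46. The size of the later decrease thus depends on the scaling and on the probes.

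The genes at the ends of this narrow range were examined one by one. At the ES–ELA transition the lowest values were -0.19 for Rps29, -0.18 for Rps25, whose protein serves initiation at some internal ribosome entry sites, and -0.18 for Rps27a, which is made fused to ubiquitin. The highest were 0.17 for Rpl22, 0.16 for Rpl15 and 0.15 for Rpl4, whose protein lines the tunnel through which the new peptide leaves. None of the 6 was farther from 0 than the spot SD of 0.23. At the ELA–NPC transition Rpl21 (-0.41) and Rps27a (-0.36) were among the 3 lowest changes, and Rpl22, Rps24 and Rpl11 had the highest (0.30, 0.22 and 0.16). At the NPC–NPC/Neu transition Rpl22 (-0.66) and Rpl21 (-0.62) lay farther than 3 scaled median absolute deviations from the median of the list, and Rpl4 (0.18), Rps28 (0.15) and Rps9 (0.10) were highest.

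Some of these shifts rested on single probes. The 3′ UTR probe of Rpl22 read 13.96, 14.37, 15.21 and 14.15, a rise and a fall, while its probe across the stop codon read 18.20, 18.13, 17.89 and 17.61. For Rps24, whose mRNA is known to be spliced to alternative 3′ ends, 1 of 4 probes rose from 17.45 in ES cells and 17.83 in ELA to 19.05 at both later stages. The other Rps24 probes changed by at most 0.23 at any transition. Both probes of Rpl21 fell by 0.62 at the last transition, and both lie in a 3′ UTR.

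**Figure D1:**
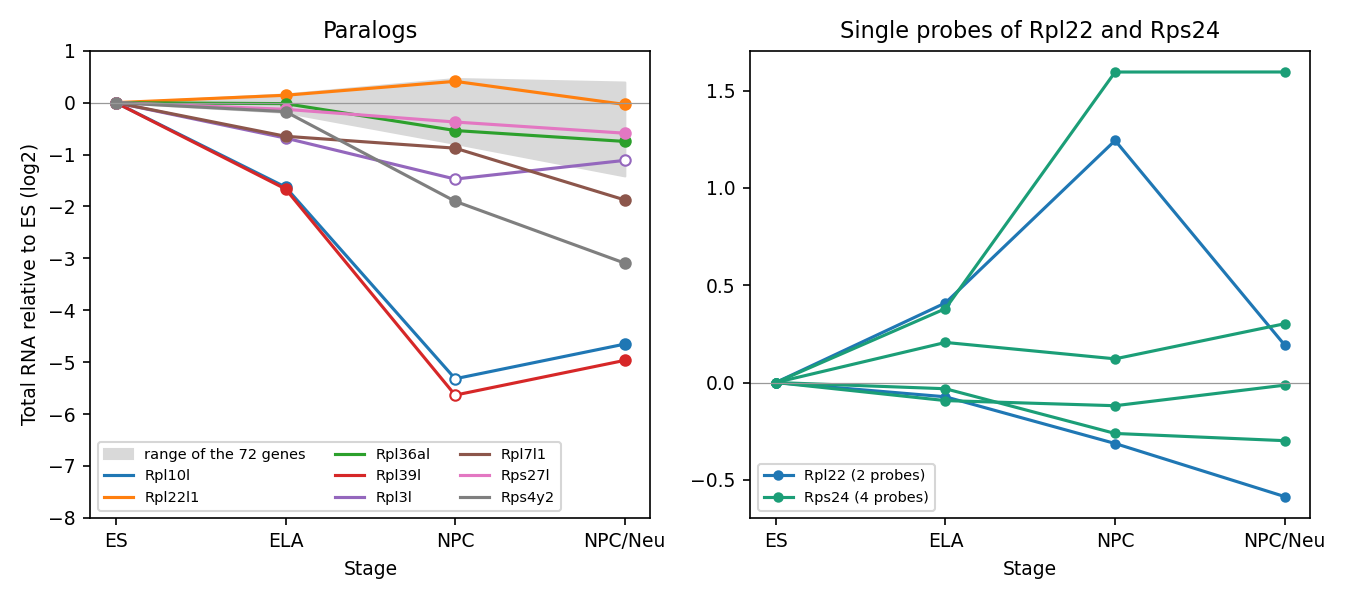
Total RNA relative to ES cells (log2) at the 4 stages. Left, the 8 paralogs as lines, with open circles where no probe of the gene was well above background, over a grey band that spans the 72 listed genes; right, each probe of Rpl22 and Rps24 on its own. Rpl22l1, Rpl36al and Rps27l stay within the band and the other 5 fall below it at some stage, and 1 probe of each gene on the right parts from the rest.

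The Ago–RNA of the same genes was not level. The median log2 signal of the 72 genes in Ago–RNA was 17.07, 17.61, 17.39 and 16.63 from ES cells to NPC/Neu. Ago–RNA rose at the ES–ELA transition in 69 of 72 genes, by a median of 0.61, and 16 rose 2-fold and none fell 2-fold, where 9.97% of all genes tested rose and 9.30% fell. It fell in 54 genes at the ELA–NPC transition (median -0.17), none of them 2-fold in either direction (9.46% of all genes fell and 10.5% rose). At the NPC–NPC/Neu transition it fell in 69 genes (median -0.48), 10 of them 2-fold, and none rose 2-fold (7.92% of all genes fell and 7.73% rose). The plot of the changes in both fractions shows the genes spread along the Ago–RNA axis and bunched on the total RNA axis.

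**Figure D2:**
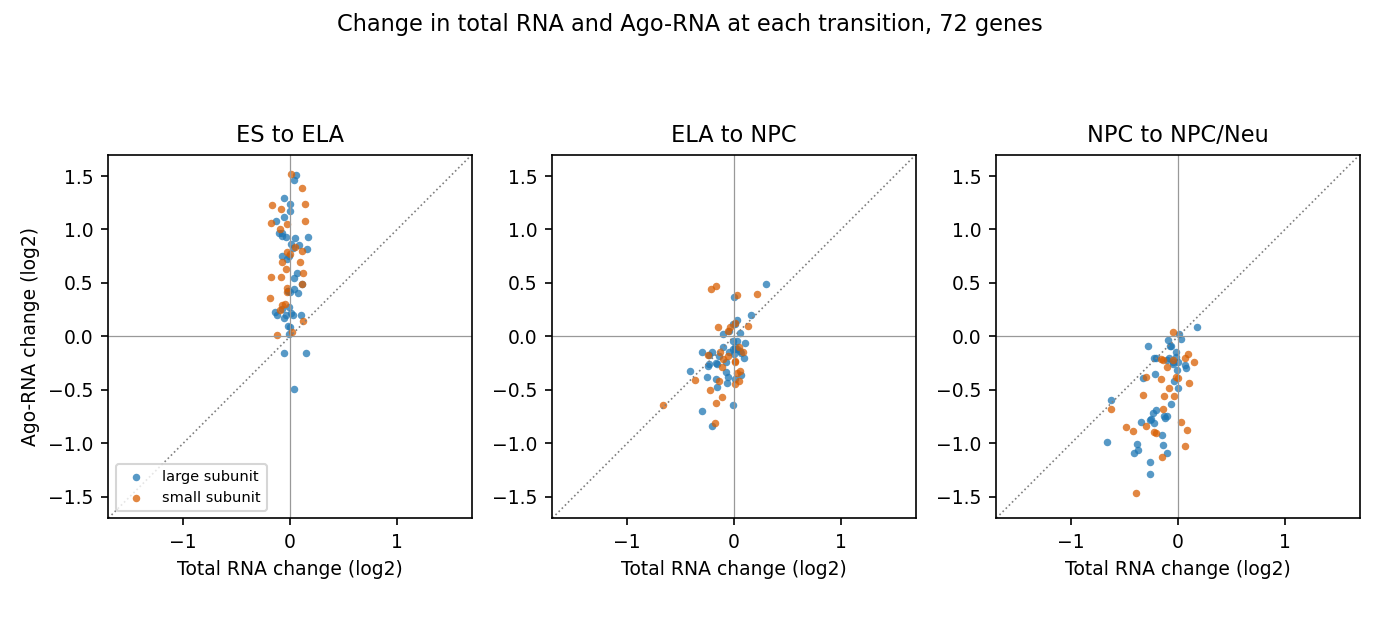
Log2 change in total RNA (horizontal) against log2 change in Ago–RNA (vertical) at each transition, with 1 point per gene for the 43 large and 29 small subunit genes; on the dotted line both change alike. At the ES–ELA transition 69 of 72 points lie above 0 on the vertical axis, and at the NPC–NPC/Neu transition 69 lie below it.

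Ago enrichment was therefore low in ES cells, closer to 0 in ELA and low again in NPC/Neu. In ES cells the median E of the 72 genes was -0.74, that is 59.8% of the total RNA signal, and 69 of the 72 were below 0. E was at or below -1 in 25 of 72 genes, where 10.8% of all genes tested were, and at or above 1 in none, where 10.3% of all genes were. In ELA the median was -0.19, with 54 genes below 0 and none past the threshold in either direction (2.40% of all genes at or below -1 and 3.63% at or above 1). In NPC the median was -0.26 and 1 gene, Rpl39, was at or below -1 (5.67% of all genes), and none at or above 1 (5.56%). In NPC/Neu the median was -0.53, 69 genes were below 0, 18 were at or below -1 (11.3% of all genes) and none at or above 1 (11.8%). With arrays scaled to their 75th percentile the median in ES cells was -1.83 and 70 genes were at or below -1, while the median of all genes was -0.33. The share of all genes at or below -1 under that scaling is not given here. The median in ELA was -0.42 under that scaling (all genes -0.17), and -0.29 with quantile normalization within each RNA fraction (all genes 0.16). As reported here, the medians of all genes tested were 0.03, -0.02, 0.04 and 0.07 at the 4 stages. E in ELA lay above E in both ES cells and NPC/Neu in 63 of the 72 genes.

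Other genes of like signal were also low, by an amount that depended on the signal range and the stage. Genes whose total RNA signal lay between the 10th and 90th percentiles of the listed genes' signals had median E of -0.51, -0.09, -0.27 and -0.60 over the stages, and 287 of 946 such genes were at or below -1 in ES cells and 418 of 1229 in NPC/Neu. Within the 72 genes E had a Spearman correlation with total RNA signal of 0.27, 0.10, 0.29 and 0.49 over the stages, given as a description. In ES cells the dimmest, middle and brightest groups of 24 genes had median E of -0.98, -0.60 and -0.67. E thus did not rise steadily with signal. Other genes in the same signal ranges had -0.09, -0.33 and -0.18. In NPC/Neu the listed genes had -0.85, -0.70 and -0.29 and the other genes -0.05, -0.73 and -0.27. The dimmest range was wide (10.60 to 17.22 in ES cells, with 8956 other genes), so that signals within it were not matched. Transcript length moved with E too. Over all 14434 genes with a length, E in ES cells had a Spearman correlation with transcript length of 0.60 across genes, which are not independent replicates. At the later stages this correlation was 0.35, 0.38 and 0.51 over all genes with a length. Over the 71 listed genes with a length it was 0.31 in ES cells, and 0.03, -0.05 and 0.06 at the later stages. The 24 listed genes with the shortest transcripts (271 to 602 bases) had a median E of -1.01 in ES cells against -0.73 for the 360 other genes of that length. The 24 of middle length (604 to 862 bases) had -0.61 against -0.65, and the 23 longest (867 to 4999 bases) had -0.71 against 0.11. That last range is wide and held 11396 other genes, so that lengths within it were not matched. Each length is that of a single annotated transcript (4999 bases for Rpl24 and 3706 for Rps20), which need not be the mRNA that the probes read. The part of signal and of length in the low Ago enrichment was not tested.

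**Figure D3:**
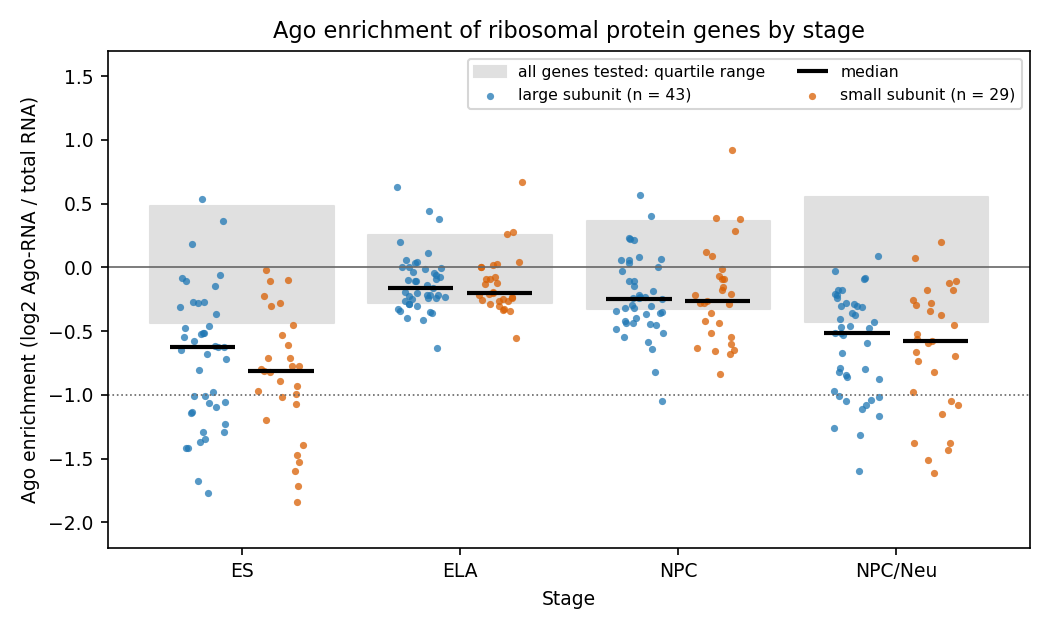
Ago enrichment (log2 Ago–RNA over total RNA) at each stage, with 1 point per gene for large (blue) and small (orange) subunit genes, black bars at their medians, a grey box for the quartile range of all genes tested and a dotted line at -1. The points reach below -1 in ES cells and NPC/Neu and lie closest to 0 in ELA, and large and small subunit medians differ by at most 0.19.

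Large and small subunit genes were compared at each stage. In ES cells the median E was -0.63 for the 43 large subunit genes and -0.81 for the 29 small subunit genes. The medians were -0.16 and -0.20 in ELA, -0.25 and -0.27 in NPC, and -0.51 and -0.57 in NPC/Neu. With probes that match no other place in the genome, which leave 20 genes, large minus small subunit genes was 0.46 in ES cells against 0.19 over the 72. In ES cells 16 of 43 large and 9 of 29 small subunit genes were at or below -1, where 10.8% of all genes were. In NPC/Neu 10 of 43 large and 8 of 29 small subunit genes were, where 11.3% of all genes were. The 3 genes above 0 in ES cells (Rpl3, Rpl4 and Rpl29) all belong to the large subunit. The median change in total RNA was -0.01 and -0.03 at the first transition for large and small subunit genes, -0.04 and -0.06 at the second, and -0.12 and -0.13 at the last.

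The lowest Ago enrichment in ES cells was that of Rps15a, a protein of the small subunit body. Its log2 signal in Ago–RNA was 12.75, 14.14, 13.96 and 13.05 in stage order, against 14.59, 14.70, 14.64 and 14.43 in total RNA. E was thus -1.84, -0.55, -0.68 and -1.38. Its coding probe shown above gave -2.03 in ES cells and -0.22 in ELA, and the 3′ UTR probe of the gene gave -1.49 and -1.28. Rpl39, whose small protein lies in the peptide exit tunnel, had Ago–RNA signals of 13.76, 15.06, 14.42 and 14.03 and total RNA signals of 15.54, 15.48, 15.47 and 15.14. Its E was -1.77, -0.41, -1.05 and -1.11, so that it was low at 3 of the 4 stages. Rps21, a short mRNA of 394 bases read by 1 probe, had Ago–RNA signals of 15.003, 16.52, 15.71 and 14.81 and total RNA signals of 16.72, 16.73, 16.55 and 16.32. Its E was -1.71, -0.21, -0.84 and -1.51.

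The highest Ago enrichment in ES cells was that of Rpl3, a core protein near the site of peptide bond formation. Rpl3 had Ago–RNA signals of 18.78, 18.29, 18.19 and 18.10 and total RNA signals of 18.25, 18.28, 18.29 and 18.01. Its E was 0.53, 0.00, -0.10 and 0.09, and both of its probes were above 0 in ES cells (0.43 and 0.64). The probe at 0.64 is the one shown above, which does not match the Rpl3 coding sequence at every base. It matches 4 other places in the genome. Rpl4 gave 0.36, 0.06, 0.06 and -0.03, and Rpl29 gave 0.18, 0.63, 0.22 and -0.42. Of the 3 values in ES cells, only that of Rpl3 was larger than 2 spot SDs (1 SD was 0.21).

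In NPC/Neu, Rpl23a (-1.60) and Rps21 (-1.51) were among the 3 lowest values. Rpl23a, which sits at the mouth of the exit tunnel, had Ago–RNA signals of 15.999, 17.12, 16.28 and 15.36 and total RNA signals of 17.37, 17.31, 17.10 and 16.95. Its 2 probes match 23 and 20 other places in the genome, so that its values are shared with copies of the gene. Among the 3 highest values in NPC/Neu were 0.09 for Rpl3 and 0.08 for Rps26, whose protein lies where mRNA leaves the small subunit. Of the 25 genes at or below -1 in ES cells and the 18 in NPC/Neu, 13 were in both lists, which is 52% of the first and 72.2% of the second. The overlap of such lists over all genes is not given here, so that these shares are a description only. E in ES cells and E in NPC/Neu, which come from separate arrays, had a Spearman correlation of 0.59 across the 72 genes, given as a description, since both read the same probes.

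At the ES–ELA transition ΔE was above 0 in 69 of 72 genes, with a median of 0.65. It was at or above 1 in 18 of the 72 genes, against 8.06% of all genes tested, and at or below -1 in none, against 6.49% of all genes. Of the 946 other genes of like signal 240 were at or above 1, with a median of 0.46. Scaling to the 75th percentile gave a median of 1.48 for the 72 genes and 0.15 for all genes, with 59 of the 72 at or above 1. The share of all genes at or above 1 under that scaling is not given here. The most positive were Rps21 (1.50), Rpl17 (1.46) and Rpl26 (1.43), and Rpl17 and Rpl26 both lie around the exit tunnel. In all 3 the Ago–RNA signal rose by 1.46 to 1.52 while total RNA changed by at most 0.06. Rps25 rose by 1.24 in ΔE, from an E of -1.52 to -0.28. The lowest ΔE were -0.53 for Rpl3, -0.30 for Rpl4 and -0.10 for Rpl8, the 3 genes whose Ago–RNA signal fell (by 0.50, 0.16 and 0.15). The spot SD of ΔE was 0.32, so that only the decrease of Rpl3 was larger than it.

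At the ELA–NPC transition, which shares arrays with those before and after it, the median ΔE was -0.10, and no gene passed 2-fold in either direction (3.00% of all genes fell and 1.54% rose). Of the 925 other genes of like signal 13 fell and 14 rose 2-fold, with a median of -0.17. Rps13 stood farther than 3 scaled median absolute deviations above the median. Rps13, on the platform of the small subunit, had Ago–RNA signals of 17.05, 17.88, 18.33 and 17.30 and total RNA signals of 17.58, 17.62, 17.41 and 17.48. Its E was -0.53, 0.26, 0.92 and -0.17, the highest value of any listed gene in NPC, and its 2 probes read 0.87 and 0.97 there. Its ΔE was 0.66, and Rpl34, also among the 3 highest, had 0.37. The lowest were Rpl39, Rps21 and Rpl23a, each at -0.63.

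At the NPC–NPC/Neu transition ΔE was below 0 in 65 of 72 genes, with a median of -0.38. It was at or below -1 in 3 genes, Rps13 (-1.10), Rps18 (-1.08) and Rpl17 (-1.02), against 3.91% of all genes tested, and at or above 1 in none, against 1.95%. Of the 1017 other genes of like signal 817 were below 0 and 144 at or below -1, with a median of -0.43. Scaling to the 75th percentile left 1 gene at or below -1, as did quantile normalization within each RNA fraction. Rps18, a protein of the small subunit head that contacts the large subunit, had Ago–RNA signals of 16.03, 17.08, 16.86 and 15.39 and total RNA signals of 17.23, 17.21, 17.21 and 16.82. Rpl17 had Ago–RNA signals of 15.03, 16.54, 16.66 and 15.37 and total RNA signals of 16.38, 16.43, 16.42 and 16.16. In both, Ago–RNA was high in ELA and NPC and low at the first and last stages, while total RNA moved by less than 0.5. The highest ΔE were 0.19 for Rpl3, 0.09 for Rps26 and 0.06 for Rpl37, all below the spot SD of 0.31.

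Probes of 1 gene did not always give the same Ago enrichment. Of 53 listed genes with several probes, 12 had probes that differed by 1 or more in E at some stage, among them 7 in ES cells. The 7 probes of Rpl17 ran from -2.21 to -0.64 in ES cells, and the 4 probes of Rpl7a from -1.22 to 0.27. Using only probes with no match elsewhere in the genome left 20 genes, with median E of -1.08, -0.30, -0.37 and -0.66 over the stages.

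Of the 8 paralogs, 5 fell below the range of the listed genes in total RNA at some stage. Rpl39l and Rpl10l, known for expression in the male germ line, fell from ES cells on. The Rpl39l probe read 12.52, 10.86, 6.89 and 7.56 in stage order, so that total RNA was 3.17-fold lower in ELA than in ES cells, at least 49.7-fold lower in NPC, where the probe was not well above background, and 31.2-fold lower in NPC/Neu. The coding probe of Rpl10l shown above read 11.05, 9.41, 6.76 and 6.96, which is at least 19.5-fold lower in NPC and at least 17.0-fold lower in NPC/Neu, where it was not well above background. The 3′ UTR probe of Rpl10l read 13.09, 11.47, 6.74 and 7.87 and gave 3.08-fold at the first step, at least 81.3-fold in NPC and 37.3-fold in NPC/Neu. A bound is the ES signal over the lowest signal of a probe well above background on the later array, or over the probe's own signal where that was higher. The partner of Rpl10l on the X chromosome, Rpl10, stayed between 18.73 and 18.76 at all 4 stages.

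Rps4y2, the array's name for a gene on chromosome 6 (mm9, chr6:148303178-148304120), read 16.15, 15.98, 14.25 and 13.06, a fall of 8.53-fold between ES cells and NPC/Neu. Rpl7l1, a relative of Rpl7 that acts in large subunit assembly, read 12.23, 11.58, 11.35 and 10.36, which is 3.67-fold lower in NPC/Neu than in ES cells. Rpl3l, known from muscle, was well above background in ES cells only, at 7.72 in total RNA and 7.69 in Ago–RNA. Rpl36al read 16.45, 16.44, 15.92 and 15.71, and Rps27l, a known target of p53, read 17.57, 17.44, 17.20 and 16.98, both within the range of the listed genes.

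Rpl22l1, the partner of Rpl22, had the lowest Ago enrichment in ES cells of any member. Its Ago–RNA signal was 14.20, 16.31, 15.88 and 14.79, while its total RNA signal was 16.62, 16.76, 17.03 and 16.58. Its E was -2.42, -0.45, -1.15 and -1.79, from 1 probe that matched 2 other places in the genome. Rpl22 itself gave -1.10, -0.34, -0.14 and -0.47. In ES cells Rpl39l gave -1.71, Rps27l -1.45, Rpl10l -1.10, Rpl7l1 -0.88, Rpl36al -0.87, Rps4y2 -0.46 and Rpl3l -0.03. All 8 paralogs were thus below 0 (47.8% of all genes were) and 4 were at or below -1 (10.8% of all genes were).

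Of the 15 pseudogene names, 14 had a probe well above background on all arrays. Median E over the stages was -1.10, -0.08, -0.30 and -0.94, with 8 of 15 at or below -1 in ES cells and 7 in NPC/Neu, where 10.8% and 11.3% of all genes were. The lowest were Rpl26-ps4 (-2.16, -0.37, -0.49 and -1.32 over the stages) and Rpl26-ps2 (-2.07, -0.38, -0.65 and -0.33), beside -1.67, -0.25, -0.35 and -0.88 for Rpl26. Since pseudogenes share most of their sequence with the parent gene, these probes cannot be said to read the pseudogene alone. Rps19bp1 gave -0.92, -0.22, -0.14 and -0.83.

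Other genes of the translation machinery were set beside the 72. The 7 ribosomal genes with other names (Rplp0, Rplp1, Rpsa and Fau among them) gave median E of -0.59, -0.20, -0.33 and -0.44, and the acidic stalk protein gene Rplp1 was lowest, at -1.56 in ES cells and -1.82 in NPC/Neu. The 76 mitochondrial ribosomal protein genes, whose products form a separate ribosome, gave -0.92, -0.27, -0.42 and -0.78. In ES cells 31 of them were at or below -1, against 25 of the 72 cytosolic ones and 10.8% of all genes. With quantile normalization within each RNA fraction the mitochondrial genes gave -0.50, 0.09, 0.03 and -0.37, with 12 at or below -1 in ES cells. Their total RNA changed by a median of -0.13, -0.26 and -0.33. The 12 listed translation elongation and termination genes gave median E of 0.41, 0.16, 0.02 and 0.27, and Pabpc1, the poly(A)-binding protein, was at 1.66 in ES cells and 0.19 in ELA.

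The 41 listed ribosome biogenesis genes, which make and modify ribosomal RNA and assemble the subunits, fell in total RNA, most at the ELA–NPC transition. Their median change was -0.30, -0.91 and -0.44 at the 3 transitions, and 18 of 41 fell 2-fold at the ELA–NPC transition, against none of the 72 ribosomal protein genes and 8.80% of all genes. Scaling to the 75th percentile gave -0.39, -1.19 and -0.54, beside 0.06, -0.54 and -0.59 for the ribosomal protein genes. Nol6 fell by 1.88 and Bop1 by 1.71 at that step. Their median E was 0.28, -0.21, -0.29 and 0.07, and 12 of 41 were at or above 1 in ES cells, again against none of the 72 and 10.3% of all genes. The sign in ELA and NPC turned to 0.14 and 0.09 with quantile normalization within each RNA fraction. At the ES–ELA transition their median ΔE was -0.57, while that of the ribosomal protein genes was 0.65. Of the 41 genes 12 were at or below -1 there, against 6.49% of all genes.

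**Figure D4:**
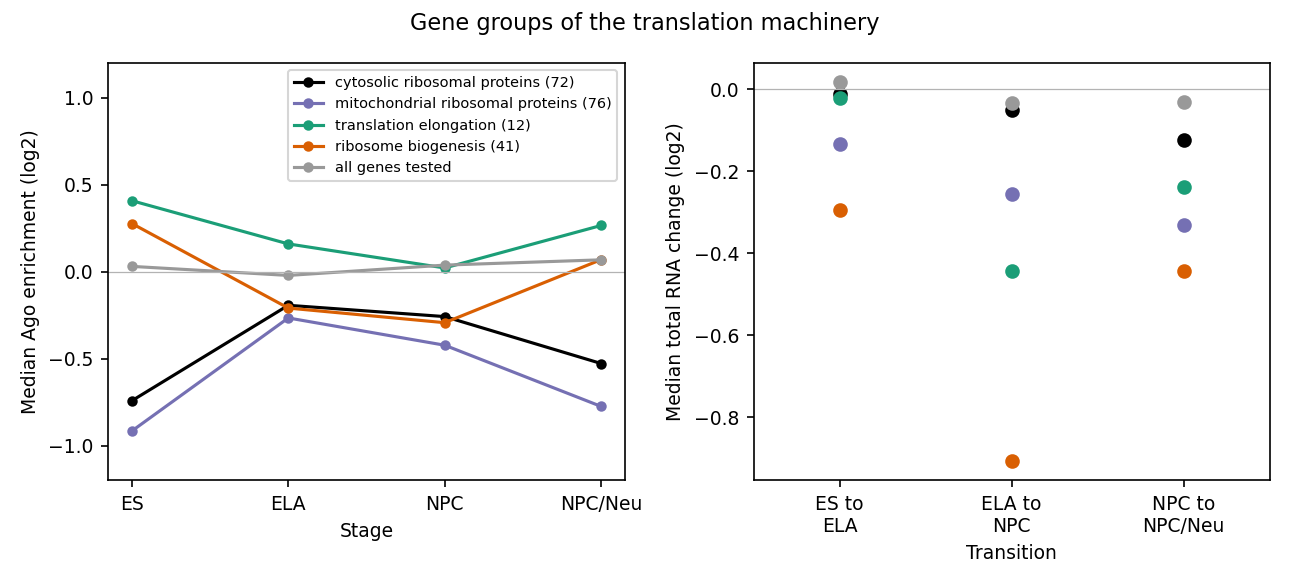
Left, median Ago enrichment (log2) at each stage; right, median log2 change in total RNA at each transition, for the gene groups named in the key with their numbers of genes. Cytosolic and mitochondrial ribosomal protein genes lie below the other groups in ES cells and NPC/Neu, and in the values as plotted ribosome biogenesis genes have the lowest change in total RNA at each transition (not at the last with scaling to the 75th percentile), with a median of -0.91 from ELA to NPC.

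The start sites of these genes share letters that the choice of genes did not use. Windows from 250 bases before to 50 after the start were read from RefSeq for GRCm38.p6, a later build than that of the array, and were found for 53 of the 72 genes. The pyrimidine run CTTTCC on the gene's strand was present in 39.6% of the 53 genes, against 4328 of all 27025 genes with a window and 19.4% of 67 mitochondrial ribosomal protein genes. CCGGAAG on either strand was present in 41.5%, against 9.93% of all genes and 35.8% of the mitochondrial ribosomal protein genes, and TATAAA on the gene's strand in 7.55% against 9.77% of all genes. A match is a description of the letters and not a measured site. Stretches of 30 bases at or shortly after the start site are shown for 4 genes of the list, with CTTTCC in capitals. In these genes total RNA stayed within 0.5 log2 units over the stages.

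Rpl10a, chr17:28328574-28328603 (+): gcgctctgccttCTTTCCggtttccgcggc
Rpl13a, chr7:45128719-45128748 (-): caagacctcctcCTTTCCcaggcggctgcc
Rpl28, chr7:4792955-4792984 (+): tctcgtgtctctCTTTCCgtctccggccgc
Rps27, chr3:90213630-90213659 (-): ccgctttcgctcCTTTCCggcggtgacgac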

How the data were processed

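Total RNA and Ago–RNA of 4 stages were measured on 8 Agilent one-color mouse arrays (design 028005, mm9). The authors deposited the spot intensity written by Feature Extraction, 10.7.3.1 per the file headers and 9.1 per the submitters' processing notes, as mean signal, local background and a background-subtracted, surrogate-filled processed signal, none of them normalized between arrays. Per the labels, RNA of 3 independent experiments was pooled and 50 ng was labeled per array. The spot flags for outliers, background and saturation are other values deposited in the same files. With 1 array per condition no p-value is given, and precision is limited by the count of arrays.

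In limma 3.58.1 (R 4.3.3), background was corrected by normexp with an offset of 50, irregular spots (125 to 523 per array) were left out, and quantile normalization was applied to log2 values of the 8 arrays. Spots were averaged per probe and probes per gene name. All genes tested are those with a probe well above background on the arrays compared. Probes were matched to mm9 and its GENCODE transcripts with up to 3 mismatches, and transcript length is that of the shortest transcript with the longest coding sequence. Tables and figures were made with Python 3.11.15, numpy 2.4.6, pandas 2.3.3 and matplotlib 3.10.9. The calculation of E was checked on simulated data.

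The members, gene lists and measures were chosen with earlier results of these data known. Named are the 3 highest and 3 lowest listed genes in E in ES cells and NPC/Neu, in each ΔE and in each total RNA change, genes farther than 3 scaled median absolute deviations from the list's median, every paralog and other names with a size of 2 or more. Rpl7a, Rpl10, the genes with bases shown from at or near their start sites and members of the comparison lists were named after their values were seen. The alternatives were an offset of 16, the processed signal with quantile normalization or scaled to the 75th percentile, quantile normalization within each RNA fraction, and other choices of probes or names. Some genes that this rule takes are not reported here.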

Additional observations from a re-analysis of the deposited data

Results flagged for a closer look

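For 2 genes the change in Ago enrichment passed 2-fold in opposite directions at 2 transitions. Rpl17 had a ΔE of 1.46 at the ES–ELA transition and -1.02 at the NPC–NPC/Neu transition. Rps18 had a ΔE of 1.08 and -1.08 at the same transitions. At the NPC–NPC/Neu transition 3 of the 72 genes were at or below -1, against 3.91% of all genes and 144 of 1017 other genes of like signal. Scaling to the 75th percentile left 1 of the 72 genes there, as did quantile normalization within each RNA fraction. Under each of these, at least 1 of Rpl17 and Rps18 was thus not past the threshold. The difference between transitions was not tested, since each condition has 1 array. The probes of both genes match other places in the genome, and the 7 probes of Rpl17 differed in Ago enrichment in ES cells.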

How the results depend on the processing

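The median Ago enrichment of the 72 genes was below 0 at every stage under all alternatives tried, and no value past 2-fold changed sign. Some values past 2-fold as reported were no longer past it under other scalings. Scaling the processed signal to the 75th percentile gave median E of -1.83 in ES cells, -0.58 in NPC and -0.91 in NPC/Neu, with 70, 1, 5 and 29 of 72 genes at or below -1 at the 4 stages, and the median of all genes moved to -0.33 in ES cells. Relative to all genes, the 72 genes had a median E of -1.50 in ES cells under it, against -0.77 as reported. The same scaling gave changes in Ago–RNA of 1.56, -0.74 and -0.95, a ΔE of 1.48 at the ES–ELA transition, and changes in total RNA of -0.54 and -0.59 at the last 2 transitions. The cause was not tested. Quantile normalization within each RNA fraction moved the median of all genes in E to 0.14 in ES cells and 0.21 in NPC/Neu, and the 72 genes were at -0.82 and -0.68. Counting each of 166 probes alone put 56, 1, 2 and 40 at or below -1. Counting all 96 names put 2 there in NPC, and probes that match no other gene put 2 of 55 genes there. Probes that match no other place in the genome, an alternative chosen after seeing the data, left 20 genes, with a median E of -1.08 in ES cells, 11, 1, 2 and 6 genes at or below -1, large minus small subunit genes at 0.46 in ES cells and a total RNA change of -0.46 at the last transition. For none of these alternatives is the share of all genes past the threshold given, so that their counts have no such share beside them. Leaving out saturated spots changed nothing, since there were none. No paired analysis was possible because each condition has 1 array. Spot noise covers neither cultures nor immunoprecipitations.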
